A study of Sus scrofa domesticus with 36 samples.

Results

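FBXO32, FOXO1, SQSTM1, UBB and EIF4EBP1 code for proteins that act in muscle protein breakdown or hold back translation. These 5 genes, each carried by 1 row of the count table, were chosen by symbol from the 25322 Ensembl genes of the pig, and all 5 were among the 12542 genes with enough reads to be tested. The libraries came from 18 pigs of 1 commercial cross, Danbred 600 × Newsham NC32, with 1 library of longissimus dorsi muscle (the long muscle of the back) and 1 of subcutaneous backfat from each pig, taken 3 weeks after weaning. For every pig the labels give an age of 16 to 17 days at the weaning stage, which does not match that time. The pigs were picked as 9 slow growers, from the lowest 10th percentile of growth, and 9 faster growers, from the 60th to 70th percentile, out of 1054 weaned animals. The labels do not say which pig belonged to which class, so growth classes were not compared, and each pig is named by its sample title (Sample_77 and so on, plotted as the number alone). The comparisons the labels allow are muscle against adipose tissue, and the variation of the genes over pigs within each tissue. The animals are separate individuals, and all samples are intact tissue.

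As background, muscle protein is broken down mainly by the ubiquitin-proteasome system and by autophagy. FOXO transcription factors are kept out of the nucleus by insulin and AKT signalling, and when that signal falls they switch on FBXO32, which codes for atrogin-1, the substrate receptor of a ubiquitin ligase that is high in wasting muscle. UBB codes for a polyubiquitin precursor, and SQSTM1 for a receptor that binds ubiquitinated cargo and LC3 proteins and so delivers cargo to autophagosomes. EIF4EBP1 codes for a protein that binds the cap-binding factor eIF4E and blocks translation initiation until it is phosphorylated by mTORC1. These are transcript levels, and neither phosphorylation nor ligase activity was measured.

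Gene counts per library ran from 4716541 to 6216459 in muscle and from 2990913 to 5373406 in adipose tissue. Levels below are CPM, counts scaled to a common library size with trimmed-mean factors, which averaged 0.626 in muscle and 1.62 in adipose tissue, so directions between tissues were also taken with library totals alone. Summed muscle fibre markers (7 of 10 measured) ran from 65845 to 400745 CPM in muscle and from 109 to 22262 CPM in adipose tissue, where the median was 1156 and pigs Sample_731, Sample_391, Sample_176 and Sample_911 held the most ACTA1, the skeletal muscle actin. Summed adipocyte markers (7 of 9 measured) ran from 1677 to 3444 CPM in adipose tissue and from 350.3 to 762 CPM in muscle, and none of the markers measured was at 0 in all libraries. All 7 fibre markers measured were called higher in muscle and all 7 adipocyte markers in adipose tissue, as the tissues are labelled. In bulk tissue, fewer cells of a type and less RNA per cell cannot be told apart.

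The muscle libraries of pigs Sample_572 and Sample_735 stood apart from the other 16, and they are given separately throughout because they held the highest muscle levels of 4 of the 5 genes. Their ACTA1 level was 25059 and 22408 CPM, against 68879 to 314848 CPM in the other 16 muscle libraries. Their 10 most abundant genes took 16.0% and 18.4% of counts, against 23.0% to 39.3% in the others, and their counts outside annotated genes were 34.1% and 22.0%, against 16.2% to 23.9%. Summed fibroblast markers were 1586 and 1387 CPM in these libraries, below the range of 2790 to 8824 CPM in the others. Summed adipocyte markers were 762 and 670 CPM against 350 to 667 CPM. Of the 7 adipocyte markers only 1, LIPE, lay above the others in both libraries, at 279.5 and 219 CPM against 19.2 to 71.2. Both libraries lay within the range of the others for 4, and PLIN1 was near the low end, at 0.87 and 0.89 log2 CPM. The part that these features play in the levels below was not tested.

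**Figure D1:**
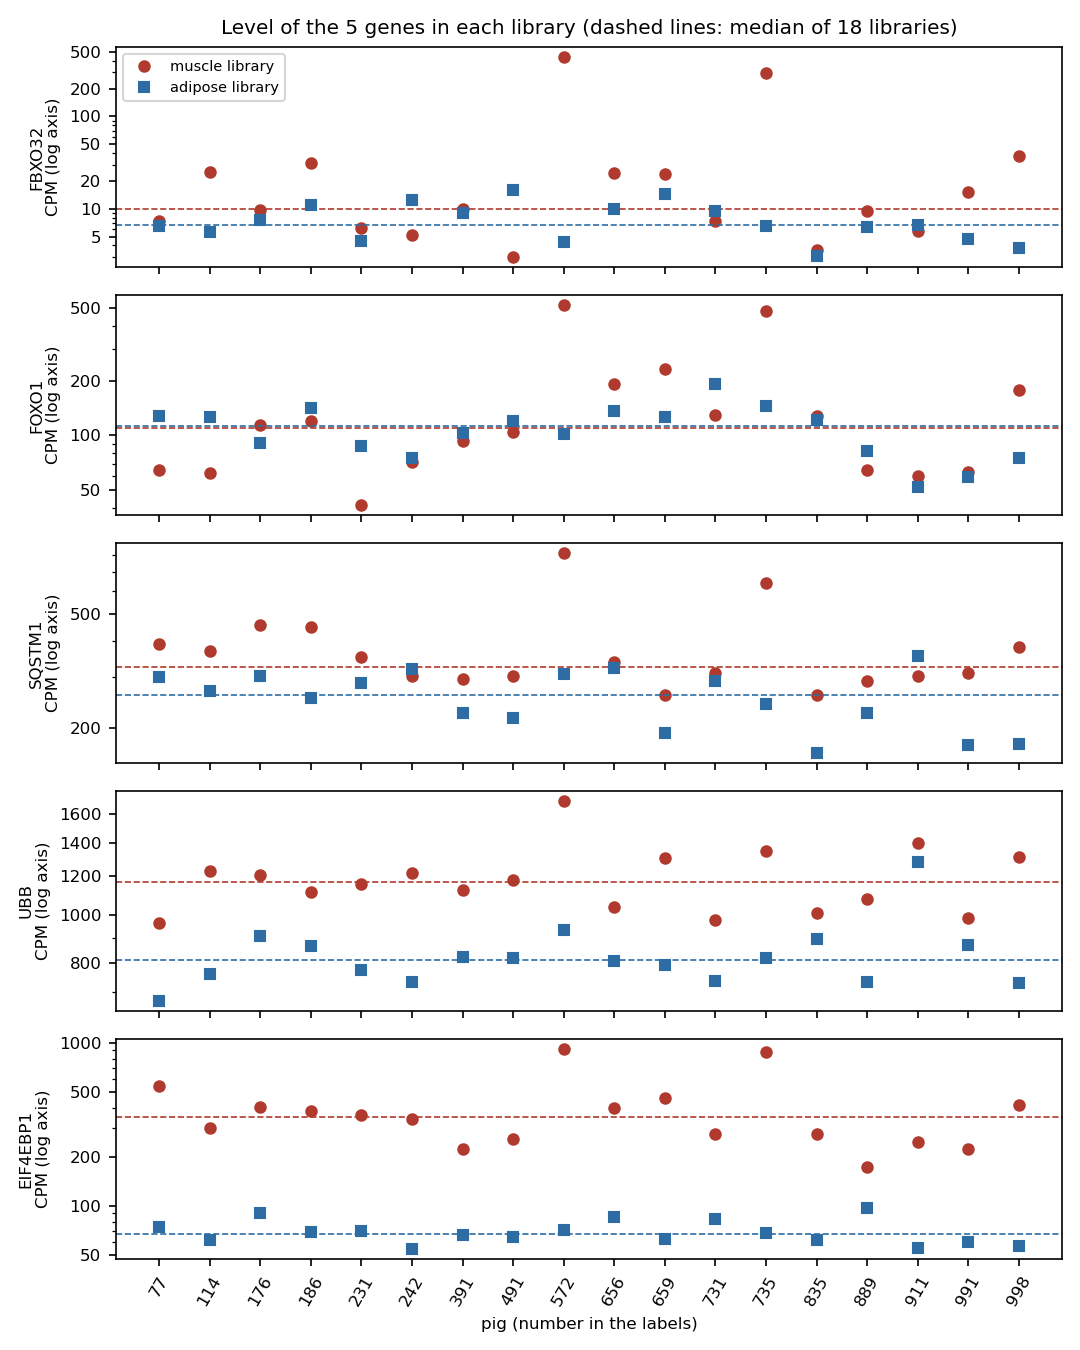
Level of each of the 5 genes in every muscle and adipose library, in CPM on a log axis, with pigs along the horizontal axis and tissue by colour. Pigs Sample_572 and Sample_735 lie above the other 16 pigs in muscle for FBXO32, FOXO1, SQSTM1 and EIF4EBP1, and within the range of the others in adipose tissue.

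FOXO1 (ENSSSCG00000009370), the transcription factor, ranged in muscle from 41.4 CPM in pig Sample_231 through a median of 109 to 521 CPM in pig Sample_572. Pig Sample_735 was next with 485 CPM, and the highest of the other 16 pigs was pig Sample_659 with 233 CPM. In adipose tissue FOXO1 ranged from 52.3 CPM in pig Sample_911 through a median of 112 to 192 CPM in pig Sample_731. The tissues therefore overlapped, with the muscle libraries of 3 pigs above every adipose library and 1 muscle library, that of pig Sample_231, below every one. The means were 151 CPM ± 138 in muscle and 109 CPM ± 35.0 in adipose tissue (SD, n = 18), and without pigs Sample_572 and Sample_735 the muscle mean was 107.5 CPM ± 54.5 (SD, n = 16).

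FBXO32 (ENSSSCG00000005981), the atrogin-1 gene, ranged in muscle from 2.99 CPM in pig Sample_491 through a median of 9.89 to 440.3 CPM in pig Sample_572, a ratio of 147 between the ends. Pig Sample_735 had 294 CPM, and the next were pig Sample_998 with 36.95 and pig Sample_186 with 31.3 CPM. The counts behind these values ran from 12 to 1826, so the lowest libraries are known only to within the counting error of a few reads. Over the other 16 pigs the highest level was still 12.4 times the lowest, with 5 pigs between 23.6 and 36.95 CPM and 11 pigs at 15.2 CPM or below. In adipose tissue FBXO32 was low in every library, from 3.05 CPM in pig Sample_835 through 6.59 to 15.8 CPM in pig Sample_491, on 23 to 130 counts. Pig Sample_491 was thus lowest in muscle and highest in adipose tissue. The means were 53.3 CPM ± 117 in muscle and 7.86 CPM ± 3.70 in adipose tissue (SD, n = 18), and 14.0 CPM ± 10.7 in muscle without pigs Sample_572 and Sample_735 (SD, n = 16).

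UBB (ENSSSCG00000018033), the polyubiquitin precursor gene, was the steadiest of the 5 in muscle. It ranged there from 966 CPM in pig Sample_77 through a median of 1169 to 1704.5 CPM in pig Sample_572, and pig Sample_735, at 1347 CPM, came after pig Sample_911 with 1399 CPM. In adipose tissue it ranged from 671 CPM in pig Sample_77 through 814 to 1278.5 CPM in pig Sample_911. On these CPM pig Sample_77 was lowest in both tissues, and 17 of 18 adipose libraries lay below every muscle library, pig Sample_911 being the exception. The share of all genes with such an order was not counted. With library totals alone UBB was higher in adipose tissue, by a log2 difference of 0.84, so this order rests on the trimmed-mean factors. The means were 1187 CPM ± 184.5 and 831 CPM ± 133 in muscle and adipose tissue (SD, n = 18). UBB is built of near-identical repeats, so how reads were assigned to it is uncertain.

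SQSTM1 (ENSSSCG00000014016), the autophagy receptor gene, ranged in muscle from 261 CPM in pigs Sample_835 and Sample_659 through a median of 325 to 813 CPM in pig Sample_572. Pig Sample_735 followed with 639.7 CPM, and the highest of the others was pig Sample_176 with 455 CPM. In adipose tissue it ranged from 164 CPM in pig Sample_835 through 261 to 356 CPM in pig Sample_911. The tissues overlapped between 261 and 356 CPM, with 9 adipose libraries below and 7 muscle libraries above that stretch. This order rests on the trimmed-mean factors, and with library totals alone SQSTM1 was higher in adipose tissue, by a log2 difference of 0.75. The means were 379.6 CPM ± 141 in muscle and 257 CPM ± 58.2 in adipose tissue (SD, n = 18), and 336 CPM ± 59.6 in muscle without pigs Sample_572 and Sample_735 (SD, n = 16).

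EIF4EBP1 (ENSSSCG00000022301), the translation repressor gene, ranged in muscle from 173 CPM in pig Sample_889 through a median of 350.2 to 924 CPM in pig Sample_572. Pig Sample_735 had 879 CPM, and the highest of the others was pig Sample_77 with 543 CPM. In adipose tissue it ranged only from 54.6 CPM in pig Sample_242 through 67.7 to 97.0 CPM in pig Sample_889. With the trimmed-mean factors every muscle library lay above every adipose library, as was true of 17.6% of all genes tested. Library totals alone do not keep this order. In pig Sample_889 the muscle library had 602 EIF4EBP1 counts out of 5026414, and the adipose library 658.5 out of 4164449. Pig Sample_889 was lowest in muscle and highest in adipose tissue. The means were 394 CPM ± 207 in muscle and 69.6 CPM ± 12.3 in adipose tissue (SD, n = 18), and 330.2 CPM ± 100 in muscle without pigs Sample_572 and Sample_735 (SD, n = 16).

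As a description of spread, the SD of log2 CPM over the 18 muscle libraries was 1.92 for FBXO32 and 1.02 for FOXO1, at the 99.9 and 97.7 percentiles of all genes tested. It was 0.64 for EIF4EBP1, 0.43 for SQSTM1 and 0.21 for UBB, at the 86.5, 63.3 and 8.70 percentiles, against a median SD of 0.37 over all genes. Without pigs Sample_572 and Sample_735 FBXO32 and FOXO1 still varied more than most genes, with SDs of 1.09 and 0.70 at the 98.4 and 91.0 percentiles. SQSTM1 then had 0.25, at the 20.7 percentile, and UBB 0.16, at the 2.89 percentile, so their spread over the other 16 pigs was small among genes. In adipose tissue the SDs of FBXO32, FOXO1, SQSTM1, EIF4EBP1 and UBB were 0.64, 0.48, 0.34, 0.24 and 0.20, against a median of 0.32. Low counts add to the spread of FBXO32 in both tissues.

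Muscle was compared with adipose tissue to ask in which tissue each gene is the more abundant. EIF4EBP1 was higher in muscle by a log2 difference of -2.50 (adipose minus muscle, SE 0.172), in 18 of 18 pigs, with an adjusted p of 2.24e-16 in the quasi-likelihood test of edgeR with Benjamini-Hochberg adjustment. FBXO32 was higher in muscle by -2.78 (SE 0.572, edgeR adjusted p = 3.18e-05), in 14 of 18 pigs. SQSTM1 was higher in muscle by -0.56 (SE 0.133, edgeR adjusted p = 0.000198), in 16 of 18 pigs, but with library totals alone it was higher in adipose tissue, by 0.75. UBB was higher in muscle by -0.51 (SE 0.0835, edgeR adjusted p = 5.55e-07), in 18 of 18 pigs, but with library totals alone it was higher in adipose tissue, by 0.84. FOXO1 did not pass the test, at -0.47 (SE 0.270, edgeR adjusted p = 0.0996), with 9 of 18 pigs higher in muscle, and with library totals alone it was higher in adipose tissue, by 0.74 (edgeR adjusted p = 0.0332). Over all 18 pigs the direction held under both scalings for FBXO32 and EIF4EBP1, at -1.74 and -1.21 with library totals alone. The FBXO32 value includes pigs Sample_572 and Sample_735, with 1826 and 1193.5 counts in muscle, against at most 165 in the others. The counts of pigs above rest on the trimmed-mean factors and do not all hold with library totals alone. By library totals FBXO32 was lower in muscle than in adipose tissue in most pigs. In pig Sample_77 it had 21 and 54 counts, out of 5121984.5 and 5092123.5. It was higher in muscle in others, such as pig Sample_114, with 80.5 and 38 out of 5190657 and 4166051.5. EIF4EBP1 was lower in muscle in pig Sample_889, with 602 and 658.5 out of 5026414 and 4164449. For FBXO32, library totals alone were not fitted without pigs Sample_572 and Sample_735. Without those pigs its raw counts ran from 12 to 165 in muscle and from 23 to 130 in adipose tissue. Its direction over the other 16 pigs with library totals alone was not tested.

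Thus 4 of the 5 genes were called higher in muscle, where 39.2% of all genes tested were called in that direction and 46.7% in the other. With library totals alone the split was 2 higher in muscle and 3 higher in adipose tissue, against 12.1% and 80.9% of all genes. The median of all genes tested stood at a log2 difference of 0.14 with the trimmed-mean factors and 1.5 without them, and all 5 genes lay below it under both scalings.

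With the trimmed-mean factors, used for all fits of this paragraph, the size of the FBXO32 difference rested on pigs Sample_572 and Sample_735. Without both pigs it was -0.79 (SE 0.306, edgeR adjusted p = 0.0178), without pig Sample_572 alone -1.93, without pig Sample_735 alone -2.33, and -1.18 in a fit blocked by pig (SE 0.518, edgeR adjusted p = 0.0401). FOXO1 moved to 0.0088 without both pigs (edgeR adjusted p = 0.968), and to -0.14 with the block. SQSTM1, UBB and EIF4EBP1 stood at -0.40, -0.47 and -2.24 without both pigs. Without pigs Sample_731, Sample_391, Sample_176 and Sample_911, whose adipose libraries held the most muscle actin, the differences of FBXO32, SQSTM1, UBB and EIF4EBP1 were -3.10, -0.66, -0.57 and -2.63.

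**Figure D2:**
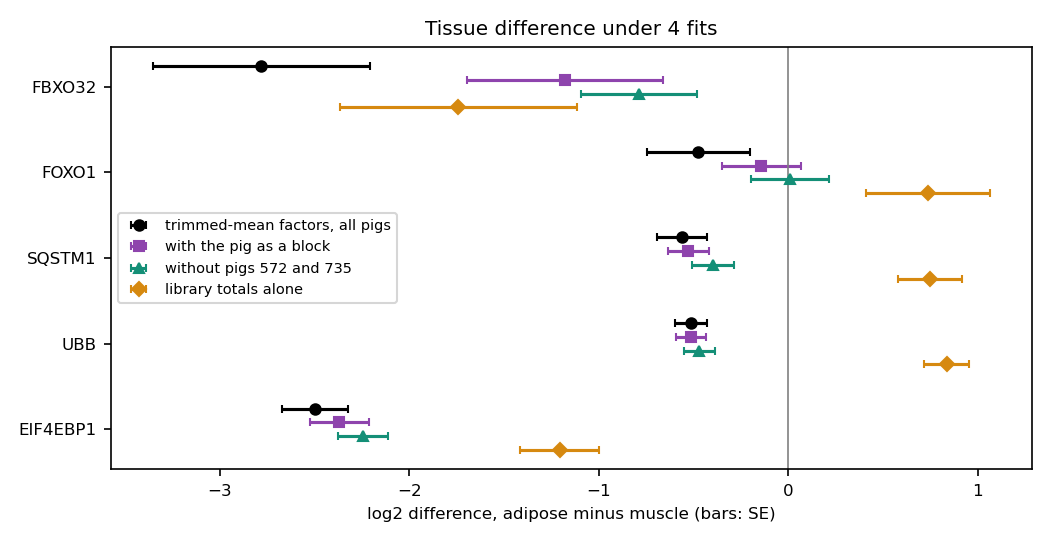
Log2 difference between tissues (adipose minus muscle) of the 5 genes under 4 fits, with bars of 1 standard error and a line at 0. EIF4EBP1 stays far below 0 in all 4 fits, FBXO32 moves from -2.78 to -0.79 without pigs Sample_572 and Sample_735, and FOXO1, SQSTM1 and UBB lie above 0 when library totals alone are used.

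The other genes of these pathways were taken from 10 lists, 145 genes in all, of which each list's tested genes are counted here with the 5 genes included where they belong. Of the ubiquitin ligases and regulators of muscle atrophy, 15 of 18 were tested, and 11 were higher in muscle and 4 in adipose tissue, against 6 and 7 with library totals alone. FBXO40, a muscle F-box protein that targets IRS1, stood at -6.54 (SE 0.401), ASB2, a muscle ligase receptor, at -6.14 (SE 0.283), and KLHL40, which steadies thin filament proteins, at -5.72 (SE 0.505). TRIM63, the MuRF1 ligase of sarcomere proteins, named here after its values were seen, stood at -5.83 (SE 0.510). These 4 kept their direction with library totals alone, between -5.21 and -4.46. STUB1, a chaperone-linked ligase, stood at -1.54 (SE 0.0654), but at -0.16, not passing the test, with library totals alone. SMURF1, a ligase of the BMP pathway, was higher in adipose tissue, at 1.85 (SE 0.118). The list's median was -1.15, against 0.14 over all genes tested, and 0.24 against 1.5 with library totals alone.

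Of 25 autophagy genes 20 were tested, 9 of them higher in muscle and 7 in adipose tissue, and 16 were higher in adipose tissue and 2 in muscle with library totals alone. Over all genes tested 39.2% were higher in muscle and 46.7% in adipose tissue, and 12.1% and 80.9% with library totals alone. The autophagy counts are thus near the shares of all genes. MAP1LC3A, an LC3 protein to which SQSTM1 binds, was higher in muscle at -2.51 (SE 0.127), and at -1.12 with library totals alone. NBR1, a cargo receptor akin to SQSTM1, stood at -0.45 (SE 0.0671), which turned to 0.91 with library totals alone. The lysosomal genes CTSL, CTSB and LAMP1 were higher in adipose tissue, at 3.44 (SE 0.238), 1.05 (SE 0.134) and 0.34 (SE 0.0651).

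Over all genes tested 39.2% were higher in muscle and 46.7% in adipose tissue, and 12.1% and 80.9% with library totals alone. Of 16 FOXO factors and FOXO-linked genes 10 were tested, with 6 higher in muscle and 2 in adipose tissue, but 1 and 7 with library totals alone. The list's median was -0.53, against 0.14 over all genes tested, and 0.74 against 1.5 with library totals alone. PDK4, the kinase that shuts off pyruvate dehydrogenase, stood at -0.87 (SE 0.357, edgeR adjusted p = 0.0242) and turned to 0.38 with library totals alone. SESN1, a stress-induced inhibitor of mTORC1, stood at -0.57 (SE 0.168) and turned to 0.74. BCL6, a transcriptional repressor, kept its direction, at -2.21 (SE 0.157) and -0.83. Of 22 translation and mTORC1 genes 15 were tested, and 13 were higher in muscle and 1 in adipose tissue, against 5 and 7 with library totals alone. DDIT4L, an inhibitor of mTORC1, stood at -4.64 (SE 0.409), and at -3.41 with library totals alone. EIF4A2 and EIF4G1, partners of eIF4E in the cap-binding complex, stood at -1.09 (SE 0.115) and -1.33 (SE 0.0836), but at 0.27 and 0.04 with library totals alone, and EIF4A1 was higher in adipose tissue at 0.89 (SE 0.116).

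The counts of this paragraph stand beside 39.2% of all genes tested higher in muscle and 46.7% in adipose tissue. With library totals alone those shares were 12.1% and 80.9%. Of the integrated stress response genes, which answer amino acid shortage and unfolded protein, 10 of 16 were tested, with 5 higher in muscle and 2 in adipose tissue (2 and 6 with library totals alone). PSAT1, of serine synthesis, was higher in adipose tissue at 2.41 (SE 0.295), and VLDLR, a lipoprotein receptor, higher in muscle at -2.77 (SE 0.133). Of the insulin, IGF and myostatin signalling genes 11 of 16 were tested, with 6 higher in muscle and 4 in adipose tissue (3 and 8 with library totals alone). MSTN, the myostatin gene, stood at -5.91 (SE 0.421), IRS1, the insulin receptor substrate, at -2.87 (SE 0.191), and IGFBP5, which binds IGFs, at 1.39 (SE 0.210). Of the calpain and cytosolic protease genes 5 of 7 were tested, with 3 higher in muscle and 1 in adipose tissue (2 and 3 with library totals alone), and CAPN3, the muscle calpain, stood at -5.80 (SE 0.312). Of 12 glucocorticoid-responsive genes 7 were tested, with 4 higher in muscle and 2 in adipose tissue, but 0 and 7 with library totals alone. Of 9 oxidative stress genes 5 were tested, with 2 higher in muscle and 1 in adipose tissue, but 0 and 5 with library totals alone.

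The muscle libraries of pigs Sample_572 and Sample_735 were the highest pair of the 18 for FBXO32, FOXO1, SQSTM1 and EIF4EBP1. They were so for 7.06% of all genes tested, and the lowest pair for 5.23%. Among the 7724 genes averaging 10 CPM or more in muscle, FBXO32 had the widest gap, with the lower of these libraries 7.97 times the highest of the other 16. FOXO1 ranked 10 with a ratio of 2.09, EIF4EBP1 24 with 1.62, SQSTM1 70 with 1.41 and UBB 856 with 0.963. The libraries were singled out with these genes in view, so the ranks are a description and carry no test. In adipose tissue the same pigs had 4.35 and 6.50 CPM of FBXO32, 102 and 145 of FOXO1, 308 and 243 of SQSTM1, 933 and 821 of UBB, and 71.1 and 68.7 of EIF4EBP1, all within the range of the other pigs.

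The list tallies here and in the next paragraph include the 5 genes, with which these libraries were singled out, so they carry no test. Over all genes tested, these libraries were the highest pair for 7.06% and the lowest pair for 5.23%. Of the 10 FOXO factors and FOXO-linked genes tested, 5 had both of these muscle libraries above the other 16 (FOXO1, FOXO3, FOXO4, PDK4 and SESN1). For 0 genes both were below, for 2 both were within the range of the others, and 3 had 1 of the libraries outside it. FOXO3, a FOXO factor with many targets in muscle atrophy, stood at 208 and 108.5 CPM in pigs Sample_572 and Sample_735, against 28.0 to 60.5 CPM in the other 16. FOXO4, another member of the family, stood at 199 and 232 CPM against 77.1 to 177, SESN1 at 320 and 205 CPM against 65.6 to 168.5, and PDK4 at 5655 and 3462 CPM against 208 to 3365. Of 20 autophagy and lysosome genes 6, SQSTM1 among them, had both libraries above and 12 both within. GABARAPL1, an LC3-family gene, stood at 29.9 and 19.7 CPM against 2.84 to 12.4, and TFEB, a regulator of lysosomal genes, at 51.4 and 62.6 CPM against 17.6 to 35.9. Of 15 ubiquitin ligases and atrophy regulators 2 had both above, FBXO32 and FBXO30, and 8 both within. FBXO30, a ligase of atrophying muscle, was at 142 and 82.9 CPM against 31.4 to 73.2. TRIM63 was above the others only in pig Sample_735, at 323 and 556 CPM against 54.4 to 530, and FBXO40, at 88.5 and 248 CPM against 177 to 614.5, was lowest in pig Sample_572. The ubiquitin ligases thus did not all lie on one side of the other pigs in these libraries.

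Of 15 translation and mTORC1 genes 3 had both libraries above the others, EIF4EBP1, MTOR and TSC2, and 6 both within. MTOR, the kinase of mTORC1, stood at 194 and 247 CPM against 51.4 to 137, and TSC2, its upstream brake, at 124 and 134 CPM against 53.7 to 102. EIF4E, the target of the EIF4EBP1 protein, was near the low end, at 84.9 and 78.2 CPM against 81.7 to 223. Of the 10 stress response genes 3 had both libraries below the others, 0 both above, 3 both within and 4 had 1 library outside. The 3 were ASNS, the asparagine synthetase gene, at 5.55 and 7.64 CPM against 10.8 to 183, ATF5, a stress-induced transcription factor, at 11.6 and 9.86 CPM against 13.1 to 191, and PSAT1 at 2.41 and 0.986 CPM against 3.17 to 44.5. Of 7 glucocorticoid-responsive genes 1 had both above, FKBP5, a glucocorticoid-induced chaperone, at 513 and 404 CPM against 57.7 to 255.

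**Figure D3:**
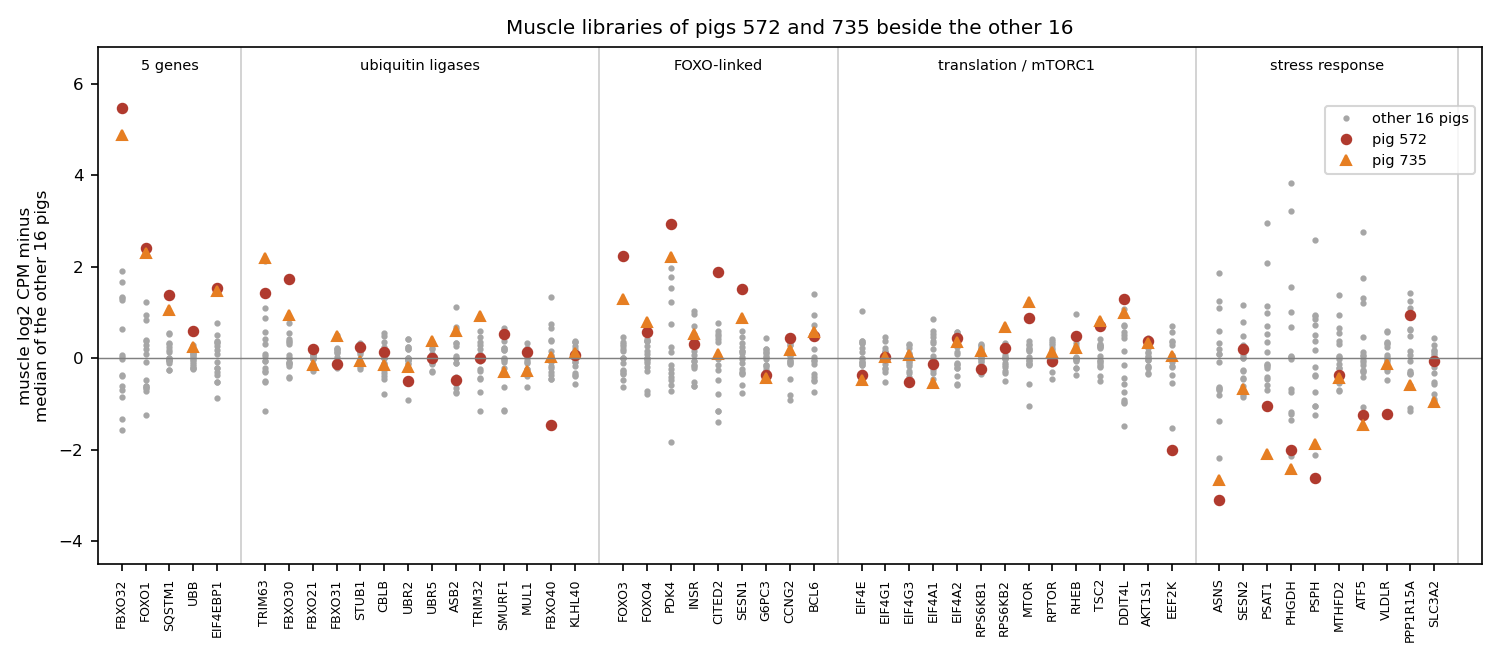
Muscle log2 CPM of pigs Sample_572 and Sample_735 minus the median of the other 16 pigs, for the 5 genes and for the genes of 4 pathway lists, with a red circle for Sample_572, an orange triangle for Sample_735 and grey points for the other 16. Both symbols lie farthest above the grey points for FBXO32, above them for FOXO1, EIF4EBP1, SQSTM1 and FOXO3, and below them for the stress response genes ASNS, ATF5 and PSAT1.

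Covariation in muscle was measured as Spearman's rho over pigs, of each of the 5 genes with each of the other 12541 genes tested, with permutation p-values adjusted by Benjamini-Hochberg over those genes. With all 18 pigs, 0 of the 10 pairs of the 5 genes were called in both orders (a pair has an adjusted p from the side of each gene), while 5 of 10 had an unadjusted permutation p under 0.05, and Pearson's r called 5. The share of all genes called was 0.0797% with FBXO32, 1.4% with SQSTM1, 4.84% with EIF4EBP1 and 0% with FOXO1 and with UBB, and by r it was 8.42%, 7.55%, 12.1%, 5.21% and 0%. An unadjusted p under 0.05 was met by 16.7% of all genes with FBXO32, 16.2% with FOXO1, 18.9% with SQSTM1, 10.8% with UBB and 23.1% with EIF4EBP1. Because 2 libraries lay apart, coefficients in muscle are given over the other 16 pigs. Among those 16 pigs 0 of 10 pairs were called by rho or by r, 1 pair by each had an unadjusted permutation p under 0.05, and 0% of all genes were called by rho with any of the 5. An unadjusted p under 0.05 was then met by 7.38% of all genes with FBXO32, 7.85% with FOXO1, 10.4% with SQSTM1, 5.28% with UBB and 13.6% with EIF4EBP1.

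That pair was SQSTM1 with EIF4EBP1, with rho 0.55 (permutation p = 0.0303, adjusted p = 0.310 from the side of EIF4EBP1) and r 0.51 (permutation p = 0.0421, adjusted p = 0.347), over 16 pigs. Without the 2 pigs farthest from the median of SQSTM1, r was 0.46. With all 18 pigs its adjusted permutation p was 0.0484 from the side of EIF4EBP1 and 0.0775 from that of SQSTM1, and without pig Sample_659, low in SQSTM1 and high in EIF4EBP1, the pair was called in both orders. FOXO1 and EIF4EBP1 had rho 0.46 (permutation p = 0.0747, adjusted p = 0.411) and r 0.37 (permutation p = 0.157).

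FBXO32 and FOXO1, the ligase gene and the factor known to switch it on, had rho 0.32 and r 0.42 over the 16 pigs, and r 0.29 without the 2 pigs farthest from the median of FBXO32. FBXO32 had rho 0.44 with SQSTM1, 0.33 with EIF4EBP1 and 0.14 with UBB. FOXO1 had -0.071 with SQSTM1 and -0.059 with UBB, and SQSTM1 had -0.035 with UBB, so 7 of the 10 pairs were positive. With all 18 pigs all 10 were positive, and the 3 that turned were the pairs among FOXO1, SQSTM1 and UBB.

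**Figure D4:**
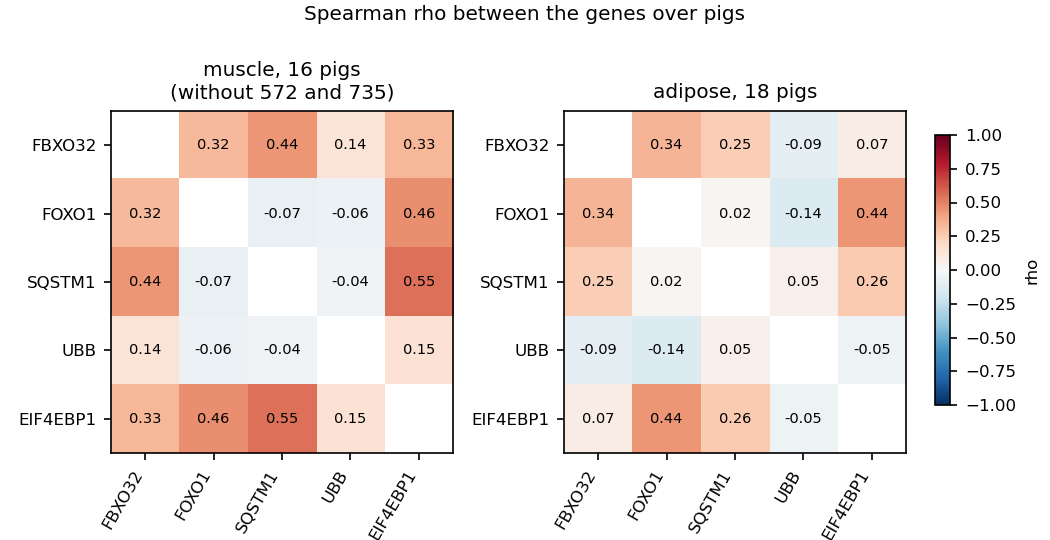
Spearman's rho between the 5 genes over 16 muscle libraries (pigs Sample_572 and Sample_735 left out) and over 18 adipose libraries, coloured from negative to positive. The largest value in muscle is 0.55, between SQSTM1 and EIF4EBP1, and the largest in adipose tissue is 0.44, between FOXO1 and EIF4EBP1.

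With all 18 pigs, 0 of 99 other genes of the pathway lists were called with FBXO32, FOXO1 or UBB in muscle. With SQSTM1 1 of 99 was called, FOXO4, against 1.4% of all genes, and with EIF4EBP1 6 of 99, SQSTM1 among them, against 4.84% of all genes. These shares are close to those over all genes, and all of these calls were lost among the 16 pigs. FOXO4 with EIF4EBP1 had an adjusted permutation p of 0.0193 over 18 pigs. Over 16 pigs it had rho 0.67 (permutation p = 0.00585, adjusted p = 0.176) and r 0.65 (permutation p = 0.00647), and r 0.52 without the 2 farthest pigs. The call was lost on leaving out pig Sample_572, Sample_735 or Sample_889 alone, and with the first principal component of the muscle libraries removed rho turned to -0.29. MTOR with EIF4EBP1 had an adjusted permutation p of 0.0241 over 18 pigs, and over 16 pigs rho 0.65 (permutation p = 0.00845, adjusted p = 0.201) but r 0.31 (permutation p = 0.253). This call was lost without pig Sample_572 or Sample_735 alone.

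EIF4A2, the helicase that works beside eIF4E, had rho 0.69 with EIF4EBP1 over 16 pigs (permutation p = 0.00393, adjusted p = 0.156) and r 0.69 (permutation p = 0.00327). DDIT4L had rho 0.58 (permutation p = 0.0214, adjusted p = 0.277) and r 0.55, falling to 0.40 without the 2 farthest pigs. PSAT1 ran the other way, with rho -0.60 (permutation p = 0.0157, adjusted p = 0.248) and r -0.47, which was -0.22 without the 2 farthest pigs. SQSTM1 and FOXO4 had rho 0.64 (permutation p = 0.00932, adjusted p = 0.343) and r 0.59. Their calls over 18 pigs were lost in 9, 11, 7 and 16 of the 18 fits that left out 1 pig. Beside these values, LUM, a fibroblast marker, had rho -0.72 with EIF4EBP1 over the 16 pigs (adjusted permutation p = 0.127) and r -0.68, and its part in them was not tested.

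**Figure D5:**
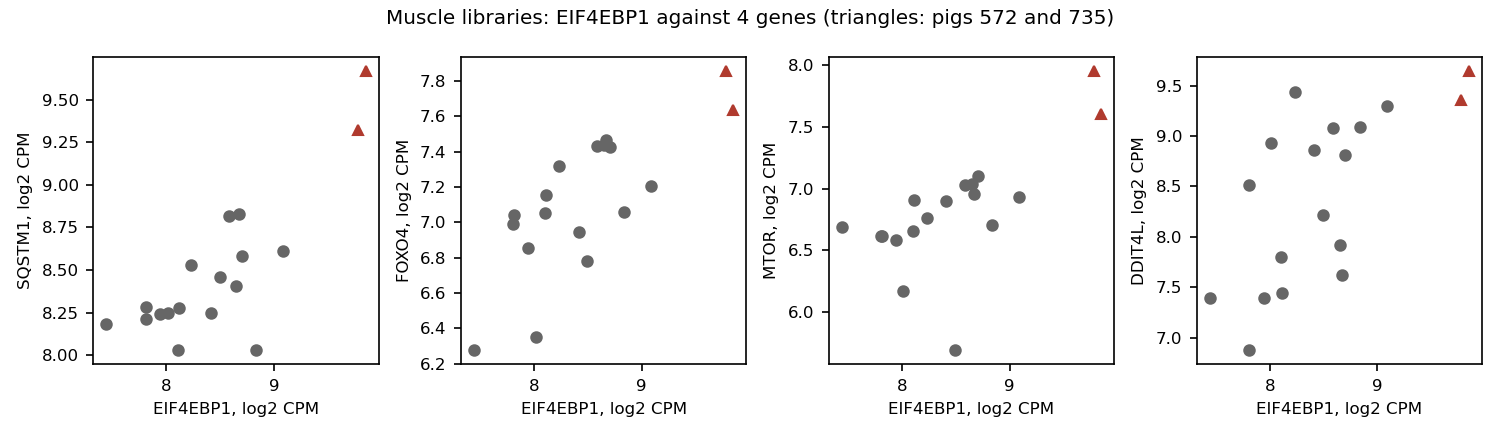
Muscle levels of EIF4EBP1 against SQSTM1, FOXO4, MTOR and DDIT4L, in log2 CPM, with 1 point per pig and triangles for pigs Sample_572 and Sample_735. The triangles lie at the upper end of EIF4EBP1 in each panel, and rho over the other 16 pigs is 0.55, 0.67, 0.65 and 0.58.

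The genes whose muscle pattern over the 18 pigs was most like that of each gene were ranked by rho, 3 from the top and 2 from the bottom, leaving out genes whose mean was under 10 CPM. For EIF4EBP1 they were NR1H3 (the liver X receptor alpha gene), APIP (an enzyme of methionine salvage) and GRB10 (an adaptor that damps the insulin receptor), with DTX4 and FRAS1 at the other end, all with an adjusted permutation p of 0.00418. Over 16 pigs NR1H3 had rho 0.87 (permutation p = 5e-05, adjusted p = 0.0570) and r 0.83 (permutation p = 0.00012, adjusted p = 0.0494), and r 0.81 without the 2 farthest pigs. GRB10 had rho 0.84 and r 0.74, APIP 0.86 and 0.84, DTX4 -0.87 and -0.90, and FRAS1 -0.87 and -0.80. The NR1H3 call over 18 pigs was not lost on leaving out any 1 pig.

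For FBXO32 the closest was PINK1, the kinase of mitochondrial quality control, with an adjusted permutation p of 0.0209 over 18 pigs. Over 16 pigs it had rho 0.84 (permutation p = 0.00016, adjusted p = 0.533) and r 0.85 (permutation p = 7e-05), and r 0.78 without the 2 farthest pigs. The call was lost without pig Sample_186, Sample_572, Sample_735 or Sample_998. RSC1A1 and USP38 followed, with rho 0.84 and 0.82 over 16 pigs, and KLHL12 (an adaptor of CUL3 ligases) and UTP6 stood at the other end, at -0.89 and -0.72.

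For SQSTM1 the closest was DNPEP, a cytosolic aminopeptidase, with rho 0.85 (permutation p = 0.0001, adjusted p = 0.285) and r 0.81 over 16 pigs, and an adjusted permutation p of 0.0279 over 18 that was lost in 7 of 18 fits without 1 pig. GRAMD1A and FN3K each had 0.79, and INTS2 and MBIP -0.82 and -0.78. The genes closest to FOXO1 did not pass over 18 pigs, at an adjusted permutation p of 0.0836, and over 16 pigs GANC, SEH1L and ARCN1 had rho 0.79, 0.77 and 0.76, and MDK and ARID5A -0.84 and -0.79. Those closest to UBB did not pass either, at 0.281 over 18 pigs, with TTC9 at rho 0.72, C18orf21 and EIF4E3 at 0.69, and FAM120A and SLC16A3 at -0.75 over 16 pigs.

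In adipose tissue 0 of the 10 pairs were called over 18 pigs by rho or by r, and 0 had an unadjusted permutation p under 0.05 by either. An unadjusted p under 0.05 by rho was met by 4.47% of all genes with FBXO32, 8.21% with FOXO1, 20.2% with SQSTM1, 2.68% with UBB and 7.8% with EIF4EBP1. FOXO1 and EIF4EBP1 had the highest rho, 0.44 (permutation p = 0.0689, adjusted p = 0.662), with r 0.39 (permutation p = 0.109), which was 0.19 without the 2 pigs farthest from the median of FOXO1. Their rho was 0.22 without those pigs and 0.69 without the 2 pigs farthest from the median of EIF4EBP1. FBXO32 had rho 0.34 with FOXO1, 0.25 with SQSTM1, 0.071 with EIF4EBP1 and -0.094 with UBB. FOXO1 and EIF4EBP1 were thus the pair with the highest or second highest rho in each tissue, without passing the test in either.

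By rho over 18 pigs, 1.28% of all genes tested were called with SQSTM1 in adipose tissue, and 0% with each of the other 4. By r there were also 4 genes called with FOXO1, and with factors taken within the tissue 6 with EIF4EBP1. MAP1LC3B, which codes for an LC3 protein that SQSTM1 binds on autophagosomes, had rho 0.88 with SQSTM1 over 18 pigs (permutation p = 1e-05, the smallest these permutations can give, adjusted p = 0.0132). Its r was 0.86 (permutation p = 2e-05), and 0.83 without the 2 farthest pigs. FOXO4 had rho 0.86 (permutation p = 2e-05, adjusted p = 0.0132) and r 0.91, and 0.85 without the 2 farthest pigs. GABARAPL1, a further LC3-family gene, had rho 0.74 (permutation p = 0.0006, adjusted p = 0.0489) and r 0.73 (permutation p = 0.00025). These were the 3 of 99 genes of the pathway lists called with SQSTM1 in adipose tissue. Over the 16 muscle libraries SQSTM1 had rho 0.25 with MAP1LC3B and -0.032 with GABARAPL1, and the difference between tissues was not tested.

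Of the cell type markers 0 were called with SQSTM1 in adipose tissue over 18 pigs, where 1.28% of all genes were called. At that share a count of 0 among so few markers decides nothing. The muscle fibre markers had a median rho of 0.51 with SQSTM1, the endothelial markers 0.51 and the adipocyte markers 0.35. The other marker lists had negative medians. They were -0.06 for fibroblast, -0.20 for macrophage, -0.33 for lymphocyte, -0.20 for blood and -0.25 for keratinocyte markers. With the ACTA1 level removed, rho was 0.78 for MAP1LC3B (adjusted permutation p = 0.0603), 0.75 for FOXO4 (adjusted permutation p = 0.0819) and 0.56 for GABARAPL1 (adjusted permutation p = 0.272), and the genes called with SQSTM1 numbered 28 in place of 161. They numbered 9 with library totals alone, 3 without the 2 pigs farthest from the SQSTM1 median and 0 with the first principal component removed. The MAP1LC3B call was lost without pig Sample_835, Sample_991 or Sample_998, the FOXO4 call in 7 and the GABARAPL1 call in 16 of 18 fits without 1 pig. Without pigs Sample_572 and Sample_735 the adjusted permutation p values of these 3 were 0.0470, 0.0488 and 0.0881, and the share of genes called with SQSTM1 was 0.144%.

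The closest genes to SQSTM1 in adipose tissue were SULT1A3, RPS28 and APOD, with rho 0.92, 0.90 and 0.89, and LRRC59 and TXLNA lay at the other end with -0.86 each, all at an adjusted permutation p of 0.0132. For FOXO1 they were PER1, a clock gene that glucocorticoids also induce, ITPKC and KLF9, a glucocorticoid-induced factor, with rho 0.89, 0.88 and 0.82. PER1 had an adjusted permutation p of 0.0627 by rho, and 0.0314 by r, which was 0.89 and 0.79 without the 2 farthest pigs. KLF9 had an adjusted permutation p of 0.112 by rho and, with r 0.86, 0.0314 by r. WDR3 and POLR3C stood at the other end, with -0.84 and -0.82.

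For EIF4EBP1 the closest in adipose tissue were GRAMD1A and MYO1C, with rho 0.89 and 0.88 (adjusted permutation p = 0.0627), and AGT, the angiotensinogen gene, with 0.84, while CERS5 and CERCAM had -0.78 and -0.74. GRAMD1A, which codes for a sterol transfer protein, thus appeared beside SQSTM1 in muscle and beside EIF4EBP1 in adipose tissue. For FBXO32, on its low counts there, CLCN3 and APLP2 had 0.74 and 0.72, and DONSON and WDR75 -0.72 and -0.65 (adjusted permutation p = 0.974). For UBB, DHDH and GRK5 had 0.72 and KLC1 0.68, and SNCG and ADAM7 -0.75 and -0.69 (adjusted permutation p = 1).

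Whether a pig with a high level in muscle also had a high level in adipose tissue was tested over 11076 genes. By rho, 0.587% of them were called over all 18 pigs. Without pigs Sample_572 and Sample_735, 22 of the 11076 genes were called by rho over the other 16. In both sets of pigs 0 of the 5 genes were called by rho or by r. The share of all genes with an unadjusted permutation p under 0.05 was not counted here. Of the 5 genes, 1 was under that p by rho and 0 by r, in both sets. That 1 was FOXO1, with rho 0.52 (permutation p = 0.0431, adjusted p = 0.351) and r 0.47 (permutation p = 0.0679, adjusted p = 0.395) over the 16 pigs, where the median gene had 0.19. SQSTM1 had rho 0.34, EIF4EBP1 0.12, UBB 0.091 and FBXO32 -0.071.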

How the data were processed

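MagMAX kits gave the RNA and TruSeq kits the libraries, sequenced as 100 nt read pairs on a HiSeq 2000, per the labels' protocols. Whether strand was kept is not stated, so antisense and overlapping genes cannot be told apart. The labels give an age of 16 to 17 days, at odds with sampling 3 weeks after weaning. The deposited values are expected counts without normalisation, in steps of 0.5 (35.1% of values not whole), which the authors made with GSNAP and HTSeq per the submitters' processing notes. Build and annotation, not given in the sources used here, could not be matched, so no coordinates or sequences are printed. Values were rounded for tests. The 5 lines naming no gene were left out, and counts in no annotated gene made 19.9% of a muscle library and 34.5% of an adipose library on average. Symbols were matched for 11804 of 25322 genes, 8495 of those tested, and unused columns numbered 0.

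Tissue and pig number came from the sample titles. The tissue test was edgeR 4.0.16 (R 4.3.3, limma 3.58.1; robust quasi-likelihood, trimmed-mean factors, default filter, tissue alone), with Benjamini-Hochberg adjustment at 0.05. Correlations used log2 CPM (prior count 2) and 100000 two-sided permutations in Python 3.11.15, with pandas 2.3.3, SciPy 1.17.1 and NumPy 2.4.6. Figures used Matplotlib 3.10.9. Scripts were tested on simulated data. Both libraries of a number come from 1 animal, so numbers pair the samples, and a pig's deviations in its own muscle and adipose libraries correlated at 0.236 on average (0.0973 to 0.359).

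Named were the 5 genes, the 4 genes of highest mean CPM of each list with its most and least different called genes, list genes called in a correlation, and the 3 highest and 2 lowest correlated genes of at least 10 CPM. Only some of the named genes are printed, a few of them and 1 list are not reported here, and list genes described for pigs Sample_572 and Sample_735 were chosen after their values were seen. Genes and lists were chosen with earlier results of these data known. Alternatives were library totals alone, factors within the tissue, DESeq2 1.42.0, a stricter filter (1 CPM in 15 of 18 libraries) or none, a pig block, Pearson's r, removal of the library total, of the first principal component or of ACTA1 or PLIN1, and leaving out pigs.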

Additional observations from a re-analysis of the deposited data

How the results depend on the processing

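With library totals alone, the 5 genes were called 2 higher in muscle and 3 higher in adipose tissue, with FOXO1 at 0.74, SQSTM1 at 0.75 and UBB at 0.84 on the log2 scale. Without pigs Sample_572 and Sample_735, chosen after seeing the data, FOXO1 stood at 0.0088. With the pig number as a replicate block FBXO32 stood at -1.18, and the block changed no call of the 5 genes. Under DESeq2 FBXO32 stood at -1.88. Leaving out 1 pig kept 4 calls in every fit.

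The count of muscle pairs called, 0 over 18 pigs, was 5 with Pearson's r and 2 with library totals alone. It was 2 with the library total removed and 1 with PLIN1 removed. On leaving out 1 pig it was 0 to 1, with pig Sample_659 the pig that moved it. The background moved too. By rho it was 0% of all genes with FOXO1 and with UBB, 1.4% with SQSTM1 and 4.84% with EIF4EBP1. Of 12541 genes, library totals alone called 2902 with FOXO1, 4353 with UBB, 1046 with SQSTM1 and 1068 with EIF4EBP1. Removing the library total called 286 with FOXO1, 587 with SQSTM1 and 910 with EIF4EBP1. Removing PLIN1 called 413 with SQSTM1 and 249 with EIF4EBP1. Whether the pairs exceeded these backgrounds was not tested. Without pigs Sample_572 and Sample_735, which are also the 2 pigs farthest from the median of FOXO1 and of SQSTM1, FOXO1 with SQSTM1, FOXO1 with UBB and SQSTM1 with UBB turned to -0.071, -0.059 and -0.035, while without the 2 pigs farthest from the median of UBB the latter pairs stood at 0.024 and 0.24. In adipose tissue FOXO1 with SQSTM1, at 0.020, turned to -0.073 with library totals alone, -0.015 with factors within the tissue, -0.032 with the library total removed and -0.0093 with the first component removed. UBB with EIF4EBP1 turned to 0.067 with library totals alone and to 0.22 without the 2 pigs farthest from the median of UBB, but stood at -0.097 without those farthest for EIF4EBP1. FOXO1 with UBB turned to 0.17 and 0.13 without those farthest for FOXO1 and for UBB. Without those farthest for SQSTM1, FBXO32 with SQSTM1 turned to -0.0029 and FOXO1 with SQSTM1 to -0.094, against 0.51 and 0.079 without those farthest for FBXO32 and for FOXO1. Without those farthest for UBB, SQSTM1 with UBB turned to -0.071. Without pigs Sample_572 and Sample_735, FBXO32 with UBB turned to 0.029 and SQSTM1 with UBB to -0.056. On leaving out 1 pig, FBXO32 with UBB ran from -0.25 to 0.025, FBXO32 with EIF4EBP1 from -0.037 to 0.24, FOXO1 with SQSTM1 from -0.10 to 0.21, FOXO1 with UBB from -0.25 to 0.022, SQSTM1 with UBB from -0.12 to 0.15 and UBB with EIF4EBP1 from -0.21 to 0.091. FAM120A with UBB in muscle turned to 0.11 with library totals alone, and FOXO4 with EIF4EBP1 in muscle to -0.29 with the first component removed. The causes were not tested. Low counts limit FBXO32, in adipose tissue above all.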

Other observations

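Other genes also set the muscle libraries of pigs Sample_572 and Sample_735 apart, chosen after their values were seen. Of 7724 genes with a mean of at least 10 CPM in muscle, 699 had both libraries above the other 16 pigs and 545 had both below, and 10 genes had a gap of more than 2-fold upwards. LIPE, the hormone-sensitive lipase gene, stood at 279.5 and 219 CPM against 19.2 to 71.2 CPM in the others. Of the 7 adipocyte markers it was the only 1 above the others in both libraries, and 4 were within their range in both. IL6R, the interleukin 6 receptor gene, stood at 96.5 and 97.2 CPM against 8.46 to 36.3, ARRDC2, of the arrestin domain family, at 205 and 216 CPM against 16.3 to 81.2, and LPIN1, a lipin that makes diacylglycerol, at 510 and 170 CPM against 30.8 to 97.7. Low in both were PKM, the pyruvate kinase gene, at 1146 and 1856 CPM against 4589 to 20490, FRZB, a secreted Wnt antagonist, at 30.4 and 46.9 CPM against 119 to 292, and the sarcomere genes TPM1, at 5357 and 5765 CPM against 12916 to 41314, and MYL1, at 9715 and 10754 CPM against 21601 to 69400. In adipose tissue the same pigs were the highest pair for 0.136% of genes tested.

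The stress response list had a median rho of -0.45 with FBXO32 over the 16 muscle libraries, -0.34 with FOXO1, -0.32 with SQSTM1, -0.34 with EIF4EBP1 and 0.03 with UBB. Over all genes these medians were -0.003, 0.04, -0.01, 0 and -0.006, and 0 of the list's 10 tested genes were called over the 16 pigs. Over the 18 adipose libraries the list had -0.05, -0.14, -0.24, 0.04 and 0.03, in the same order. In adipose tissue the glucocorticoid-responsive list had a median rho of 0.52 with FOXO1, against -0.03 over all genes, and 0 of its 7 tested genes were called. Over the 16 muscle libraries its median with FOXO1 was 0.27, against 0.04 over all genes. No p-value belongs to these medians, and those of the other pathway lists are not printed.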
